A study of Mus musculus with 6 samples.

Results

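The 9 genes examined here encode carriers and pumps that move organic ions into and out of liver cells. They were chosen by symbol: Slco1a1, Slco1a4, Slco1b2 and Slco2b1 of the organic anion transporting polypeptides, Slc22a7 and Slc22a27 of the organic anion carriers, and the ATP-driven pumps Abcc2, Abcc3 and Abcc4. Their RNA was read by 10 probes, with 2 for Slco2b1 and 1 for each other gene, out of 20659 named genes on the array. Total RNA from liver of untreated male mice aged 6 weeks was measured with Cy3 dye on 6 Agilent arrays, 3 of Sec15 knockout (KO) liver and 3 of wild-type (WT) liver, with 1 sample on each. Sec15 is a subunit of the exocyst, which tethers secretory vesicles to the plasma membrane. The labels do not state the strain, which Sec15 gene or part of it was deleted, or in which cells. The samples of each genotype are numbered, with nothing to show that they are separate animals, and p-values here thus rest on a spread between samples that could be technical.

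Hepatocytes take up bile acids, bilirubin, hormones and drugs from sinusoidal blood through carriers of the SLCO, SLC22 and SLC10 families. Conjugates then leave through the canalicular membrane into bile, chiefly by way of ABCC2 and the bile salt export pump ABCB11, or return to blood through ABCC3 and ABCC4. Nuclear receptors, the oxidative stress factor NRF2 and growth hormone signalling are known to set the RNA levels of many of these genes in rodent liver.

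Between 64.8% and 65.4% of the 39429 probes were well above background on the KO arrays, and between 67.3% and 70.3% on the WT arrays. No spot was saturated. KO replicate 2 and the 3 WT arrays were scanned in 1 run, and KO replicates 1 and 3 in another, by the scan times in the file headers. Correlations were taken over the 27024 probes that were tested below and had a value on every array. KO replicate 2 correlated with the other KO arrays at r between 0.969 and 0.975 and with the WT arrays at r between 0.958 and 0.974. KO replicates 1 and 3 correlated with each other at 0.993. KO replicate 2 was thus less like the other KO arrays than those were like each other, and differences are also given within the scan run that it shared with WT. The targeted gene could not be checked, since no label places a probe of Exoc6 or Exoc6b in the deleted part. The Exoc6 probe was well above background on no KO array and 1 WT array. The brighter of the Exoc6b probes gave 0.02 ± 0.11 in KO and 0.54 ± 0.24 in WT (mean ± SD, n = 3 each, log2 relative to the array's 75th percentile). That probe was lower in KO by the test below (difference -0.53, limma adjusted p = 0.0437), as were 11.6% of all probes tested. For it, KO replicate 2 differed from the WT mean by -0.58. All 6 hepatocyte markers (Alb, Apoa1, Ttr, Serpina1a, Fgb and Tat) were well above background on all 6 arrays. The number of arrays limits the precision, and in these bulk samples fewer cells of a type and less RNA per cell cannot be told apart.

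Upstream sequences are shown for 3 of the transporters: Slco1a4 and Slco1a1, which lie close together on chromosome 6 and of which Slco1a4 passed the test below, and Slc22a27, whose difference was the largest of the 10 probes. Each is the 250 bases before the annotated start, read 5′ to 3′ on the gene's minus strand, from RefSeq sequence of mouse build GRCm38.p6. They are Slco1a4 at chr6:141856221-141856470, Slco1a1 at chr6:141946963-141947212 and Slc22a27 at chr19:7966028-7966277. Capitals mark every match, on either strand, to any of 3 motifs: TTCNNNGAA (bound by STAT factors), TGACNNNGC (bound by NRF2) and AGGTCA (a nuclear receptor half-site).
Slco1a4: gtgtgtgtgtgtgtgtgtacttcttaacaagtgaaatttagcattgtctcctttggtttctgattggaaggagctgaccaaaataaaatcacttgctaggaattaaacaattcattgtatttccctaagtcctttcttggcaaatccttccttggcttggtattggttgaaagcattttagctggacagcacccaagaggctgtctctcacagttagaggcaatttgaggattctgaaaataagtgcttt
Slco1a1: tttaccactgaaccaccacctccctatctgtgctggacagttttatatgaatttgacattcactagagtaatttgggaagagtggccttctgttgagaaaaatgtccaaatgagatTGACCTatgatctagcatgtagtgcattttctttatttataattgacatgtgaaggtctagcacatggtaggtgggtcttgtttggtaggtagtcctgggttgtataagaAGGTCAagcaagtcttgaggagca
Slc22a27: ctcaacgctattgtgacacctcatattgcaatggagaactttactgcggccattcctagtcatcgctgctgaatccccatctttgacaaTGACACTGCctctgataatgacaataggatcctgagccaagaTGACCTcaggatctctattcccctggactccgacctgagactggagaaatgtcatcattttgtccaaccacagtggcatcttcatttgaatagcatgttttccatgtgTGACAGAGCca

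None of the 3 motifs occurred in these bases of Slco1a4, which says only that these letters are not in this window. The Slco1a1 window held the nuclear receptor half-site on the strand opposite to the one shown at bases 134 to 129 before the start, and on the strand shown at bases 24 to 19. The Slc22a27 window held the NRF2 motif at bases 161 to 153 and 11 to 3, both on the strand shown, and the nuclear receptor half-site on the opposite strand at bases 119 to 114. The motifs did not overlap in these windows. Of 32851 promoter windows of the same length, 7.02% held TTCNNNGAA, 10.2% TGACNNNGC and 14.0% AGGTCA. A window was given for 7 of the 9 genes. Among those not shown, the NRF2 motif occurred in 2 windows of Abcc4 and in that of Abcc2, the STAT motif in windows of Slco1b2 and Slco2b1, and the nuclear receptor half-site in those of Slco1b2 and Abcc2. A match is a description of letters, not a bound site.

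The comparison asked how RNA of these transporters differed between KO and WT liver. Of the 10 probes, 4 were higher in KO at a limma adjusted p under 0.05 and 0 were lower. The 4 were Slco1a4, Slc22a27, Abcc3 and Abcc4. Slc22a27 met the filter through its KO arrays alone, as did 78 probes in all, of which 71 were called higher, so its call is no independent support. Among the other 9 member probes, 3 were called, with a median difference of 0.24. Over all 27057 probes tested, 17.0% were higher and 11.6% lower in KO by the same test, 28.6% in either direction. An unadjusted p under 0.05 was reached by 7 of the 10, against 45.0% of all probes. The median difference over the 10 probes was 0.33 on the log2 scale, KO minus WT, beside 0.08 over all probes tested. All 3 KO values lay above all 3 WT values for 6 of the 10 probes and below them for 1. Over the 27024 tested probes with a value on every array, 50.2% had no overlap, 30.6% with KO wholly above and 19.6% with KO wholly below. With the scan run as a block, 1 of the 10 was called, Slc22a27, higher in KO, against 9.34% of all probes in either direction, 4.85% higher and 4.48% lower. In that fit the KO difference of a probe equals KO replicate 2 minus the WT mean, since the other run held no WT array. Every p-value with the scan run as a block, here and below, thus rests on 1 KO array for its difference. KO replicate 2 was the lowest of the KO arrays for 9 of the 10 probes, against 46.4% of all probes tested. Its median difference from the WT mean was 0.20 over the 10 and 0.08 over all.

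**Figure D1:**
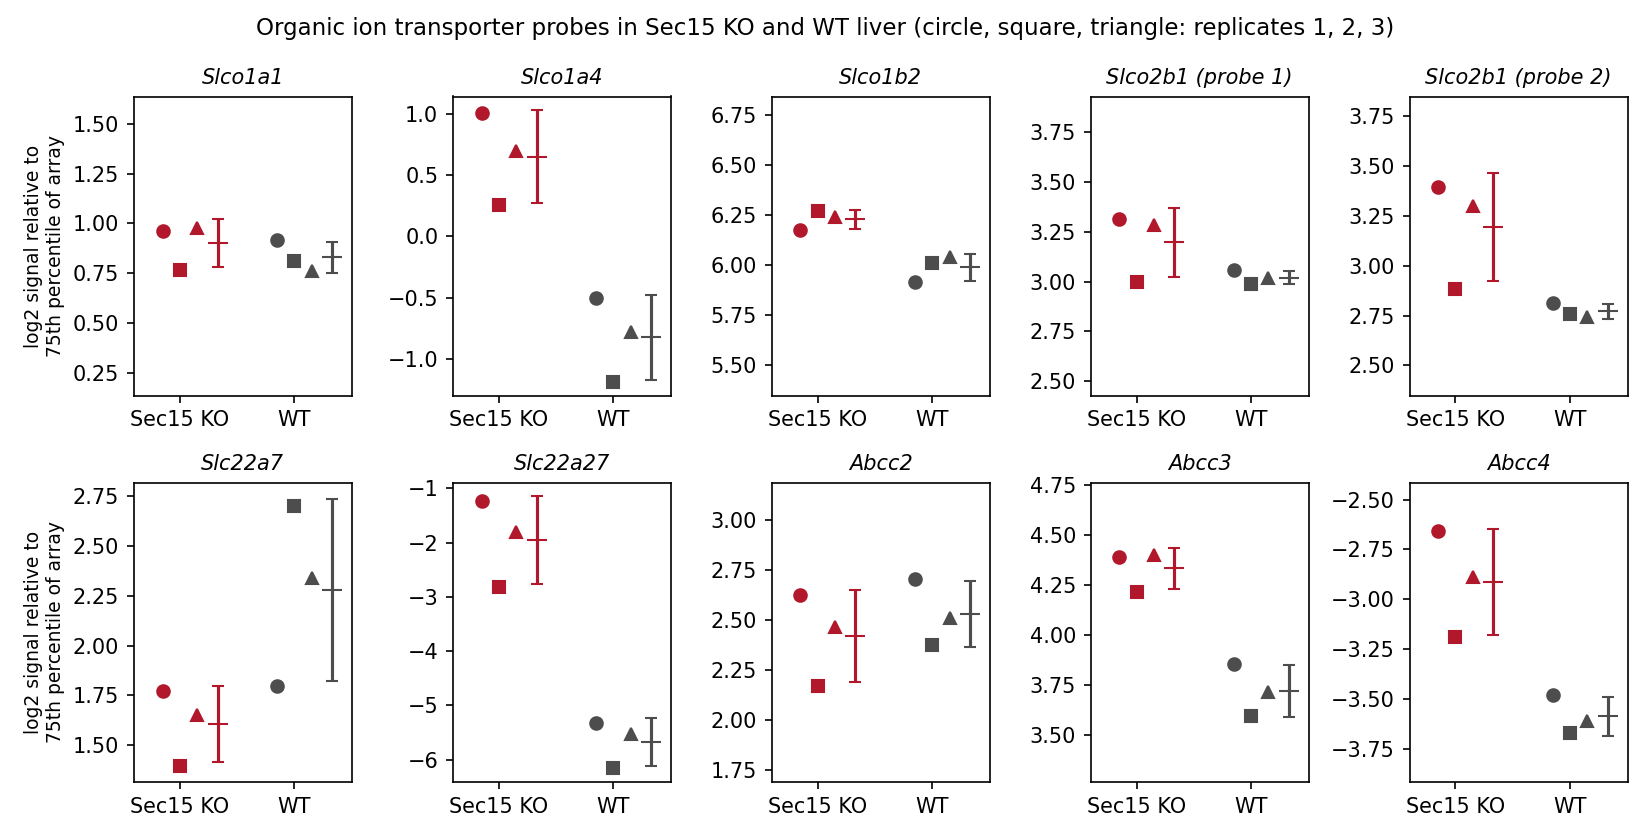
Each panel gives 1 probe: the log2 signal relative to the array's 75th percentile on the y axis, with 3 Sec15 KO arrays (red) left of 3 WT arrays (grey) and the mean with its SD beside the points; panels have their own y ranges. Slco1a4 and Slc22a27 show the widest separation, Slco1a1 and Abcc2 overlap, and the square of KO replicate 2 is the lowest KO point in 9 of the 10 panels.

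Values are log2 signals of a probe minus the 75th percentile of all probes on its array, so 0 is the signal at that percentile. They compare arrays for 1 probe and do not rank genes. Among the organic anion transporting polypeptides, Slco1a4, a sinusoidal carrier of bile acids, steroid conjugates and cardiac glycosides, was higher in KO. Its probe A_51_P335569 read 1.01, 0.25 and 0.69 in KO liver, against -0.50, -1.19 and -0.78 in WT liver. The groups did not overlap, and the lowest KO array, replicate 2, stood above the highest WT array. The difference was 1.47 on the log2 scale (SE 0.25, 95% interval 0.85 to 2.09, 2.77-fold, limma adjusted p = 0.0143), between means of 0.65 ± 0.38 in KO and -0.82 ± 0.34 in WT (SD, n = 3 each). Within the shared scan run, KO replicate 2 exceeded the WT mean by 1.07, and the adjusted p with the scan run as a block was 0.0777. The call was also lost without KO replicate 3 (1.45, adjusted p = 0.0638) and without WT replicate 3 (1.49, adjusted p = 0.0664). Over all probes, 3.69% were called without KO replicate 3 and 1.28% without WT replicate 3, against 28.6% with all arrays. The share was 10.9% without KO replicate 1 and 9.30% without WT replicate 2. A call lost in these settings, here and below, is to be read beside those shares.

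Slco1a1, which carries a similar range of anions and is known as male-biased in mouse liver, did not pass the test. Its probe A_55_P1989658 read 0.96, 0.76 and 0.98 in KO and 0.92, 0.81 and 0.76 in WT. The values overlapped. The difference was 0.07 (SE 0.11, 95% interval -0.19 to 0.33, adjusted p = 0.624), an interval that leaves room for a change of either sign.

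Slco1b2, the carrier of bilirubin, bile acids and statins that stands in mouse liver for human SLCO1B1 and SLCO1B3, gave 6.17, 6.27 and 6.24 in KO and 5.91, 6.01 and 6.04 in WT (probe A_51_P140803). Every KO array lay above every WT array, by a small margin. The difference of 0.24 (SE 0.09, 95% interval 0.02 to 0.46) had an adjusted p of 0.0931. Its sign turned after quantile normalisation (-0.07), cyclic loess (-0.03) and normexp background correction with quantile normalisation (-0.10, where both were changed together), so no direction is given for this gene, although trend and robust eBayes called it higher (adjusted p = 0.0353).

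Slco2b1, a carrier of steroid sulfates with a broad tissue range, had 2 probes. A_55_P2030155 read 3.31, 3.00 and 3.28 in KO and 3.06, 2.99 and 3.02 in WT, and KO replicate 2 fell among the WT values. A_55_P2079009 read 3.39, 2.89 and 3.30 in KO and 2.81, 2.76 and 2.74 in WT, with no overlap. Neither passed the test: the differences were 0.18 (SE 0.12, adjusted p = 0.276) and 0.42 (SE 0.15, adjusted p = 0.0840). On both, KO replicates 1 and 3 were more than 0.2 above replicate 2. Without KO replicate 2, where 46.6% of all probes were called, both were called, at 0.28 (adjusted p = 0.0415) and 0.58 (adjusted p = 0.0075). Yet the first probe gave -0.02 within the shared scan run and -0.09 after cyclic loess.

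Slc22a7, the organic anion carrier OAT2 that transports nucleotides, salicylate and other small anions, was the one gene with all KO values below all WT values. Probe A_51_P395856 read 1.77, 1.40 and 1.65 in KO and 1.80, 2.70 and 2.34 in WT. The gap was narrow, since KO replicate 1 and WT replicate 1 differed by little, and the WT arrays spread more widely than the KO arrays. The difference was -0.67 (SE 0.25, 95% interval -1.27 to -0.07, adjusted p = 0.0862). It passed the threshold without WT replicate 1 (-0.91, adjusted p = 0.0285), with WT replicates 1 and 2 averaged (-0.69, adjusted p = 0.0317) and with normexp and quantile normalisation together (-0.79, adjusted p = 0.0292).

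Slc22a27, a rodent-specific member of the organic anion carrier family on chromosome 19, had the largest difference of the 10 probes. Probe A_55_P1991841 read -1.24, -2.82 and -1.80 in KO and -5.32, -6.16 and -5.53 in WT. It stood well above background on each of the 3 KO arrays but on 0 WT arrays. Only an approximate lower bound can thus be given: the KO mean exceeded WT about 4.21-fold or more. The probe was not tested under the filter on all 6 arrays. Its limma adjusted p was 0.00732, or 0.0144 with no filter on dim probes. As it met the filter through KO alone, that p is no independent support. The bound sets the KO mean of -1.95 ± 0.80 against -4.03, the mean over WT arrays of the lowest signal well above background. Signals not well above background can exceed that mark: 1 Slco1c1 probe averaged -3.98 in WT, well above background on no array. Bounds of this kind, here and below, are thus approximate and carry no interval. The measured WT mean of Slc22a27 was -5.67 ± 0.44 (SD, n = 3 each). Within the shared scan run KO replicate 2 was at least 2.31-fold above WT by the same bound, and the adjusted p with the scan run as a block was 0.0290. The call was lost without WT replicate 3 (adjusted p = 0.0508), and the measured difference was 3.72, or 1.05 (adjusted p = 0.0195) with normexp and quantile normalisation together.

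Of the 3 efflux pumps, Abcc3 and Abcc4 passed the test and Abcc2 did not. Abcc2, the canalicular pump for bilirubin glucuronides and glutathione conjugates, read 2.63, 2.17 and 2.46 in KO and 2.71, 2.37 and 2.51 in WT (probe A_51_P277745). The groups overlapped, and the difference of -0.11 (SE 0.16, 95% interval -0.50 to 0.27, adjusted p = 0.605) did not pass the test. Its sign turned with median centring and without KO replicate 2, at 0.01 in both.

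Abcc3, the basolateral pump that returns glucuronides to blood, was higher in KO. Probe A_55_P1985623 read 4.39, 4.22 and 4.40 in KO and 3.85, 3.59 and 3.71 in WT, with every KO array above every WT array. The means were 4.34 ± 0.10 in KO and 3.72 ± 0.13 in WT (SD, n = 3 each), a difference of 0.62 (SE 0.11, 95% interval 0.34 to 0.89, 1.53-fold, adjusted p = 0.0164). Within the shared scan run it was 0.50, with an adjusted p of 0.0785 with the scan run as a block. The call was lost after quantile normalisation (0.37, adjusted p = 0.0549), cyclic loess (0.33, adjusted p = 0.0565) and normexp with quantile normalisation (0.32, adjusted p = 0.0954). It was also lost without KO replicate 1 (0.0559), KO replicate 3 (0.0778), WT replicate 2 (0.0561) or WT replicate 3 (0.0824), as adjusted p.

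Abcc4, the basolateral pump for bile acids, cyclic nucleotides and steroid sulfates, was also higher in KO. Probe A_52_P630867 read -2.66, -3.19 and -2.89 in KO and -3.48, -3.67 and -3.61 in WT. It was well above background on 3 KO and 2 WT arrays, and the groups did not overlap. The means were -2.91 ± 0.26 in KO and -3.59 ± 0.10 in WT (SD, n = 3 each), a difference of 0.67 (SE 0.16, 95% interval 0.29 to 1.06, 1.60-fold, adjusted p = 0.0274). KO replicate 2 exceeded the WT mean by 0.40 within the shared scan run, and the adjusted p with the scan run as a block was 0.133. The call was lost with normexp and quantile normalisation together (0.29, adjusted p = 0.0532), with WT replicates 1 and 2 averaged (adjusted p = 0.0517) and without KO replicate 1 (0.0680), KO replicate 3 (0.101), WT replicate 2 (0.0883) or WT replicate 3 (0.108), as adjusted p.

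**Figure D2:**
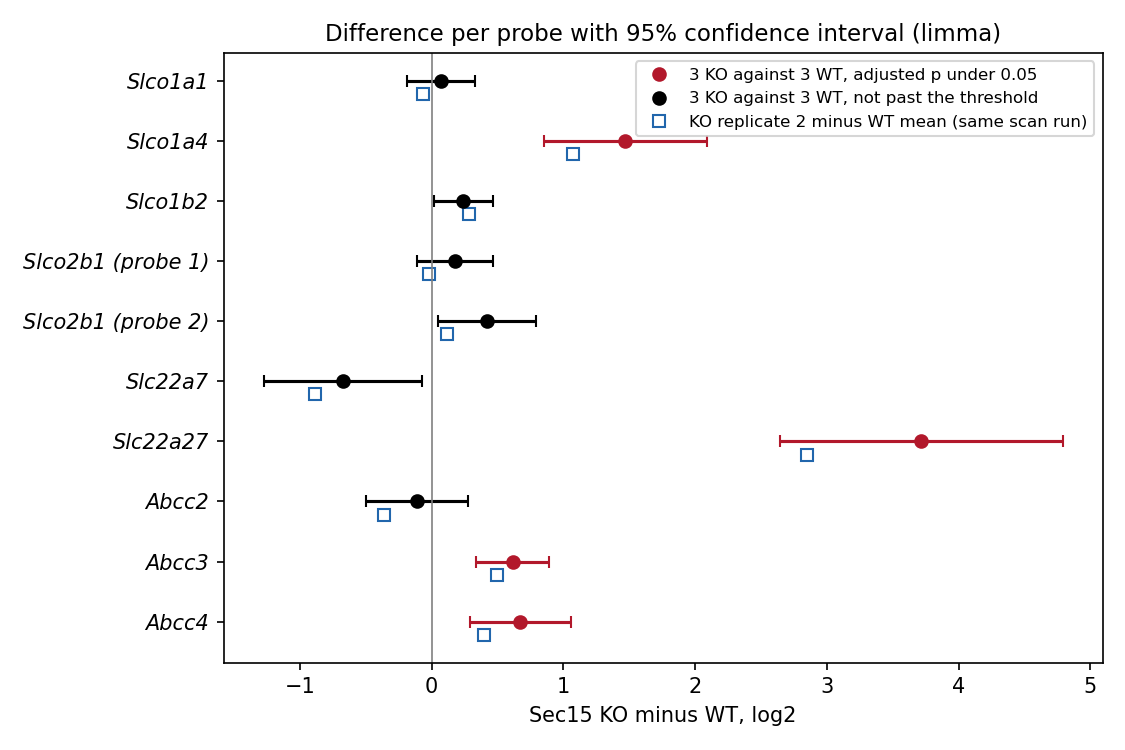
Points give the Sec15 KO minus WT difference in log2 signal on the x axis for each probe, with 95% confidence intervals from limma; red points had an adjusted p under 0.05, and open blue squares give KO replicate 2 minus the WT mean within 1 scan run. The 4 red points are Slco1a4, Slc22a27, Abcc3 and Abcc4, and each of their squares lies above 0 but left of its point; the Slc22a27 point and square are measured values against a WT group not well above background.

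The genes beside these members on their chromosomes were read as well, a choice made after values were seen. Within 200 kb on chromosome 6, in RefSeq order, lay Pde3a, Slco1c1, Slco1b2, Gm5724, Slco1a4, Slco1a1, Gm6614 and Slco1a6, 7 of the 8 with a probe. Slco1c1, a thyroxine carrier of the blood-brain barrier, Gm6614 and Slco1a6 were well above background on no array. Of the Slco genes measured there, Slco1b2, Slco1a4 and Slco1a1 were detected, and Slco1a4 was the one called. On chromosome 19 the neighbours in order were Slc22a19, Slc22a26, Slc22a27, Slc22a28 and Slc22a29. Slc22a19 was well above background on no array, and Slc22a26 differed by 0.30 (adjusted p = 0.308).

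Slc22a29, which follows Slc22a28, read -1.70, -4.42 and -2.48 in KO and -6.14, -5.99 and -6.15 in WT on probe A_51_P144531. It was well above background on 2 KO arrays and 0 WT arrays, and KO replicate 2 was again the lowest KO array. It missed the filter of 3 arrays. With no filter its adjusted p was 0.0364, and no fold is given, since KO replicate 2 was not well above background either. Slc22a28, between the pair, did not share the direction: probe A_55_P2139087 read 3.25, 3.43 and 3.34 in KO and 3.61, 3.75 and 3.63 in WT, all KO values lower, with a difference of -0.32 (SE 0.10, adjusted p = 0.0560). Its other probe gave -0.22 (adjusted p = 0.188). These genes are close copies of each other, so their probes may share signal and each value is uncertain in its assignment.

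**Figure D3:**
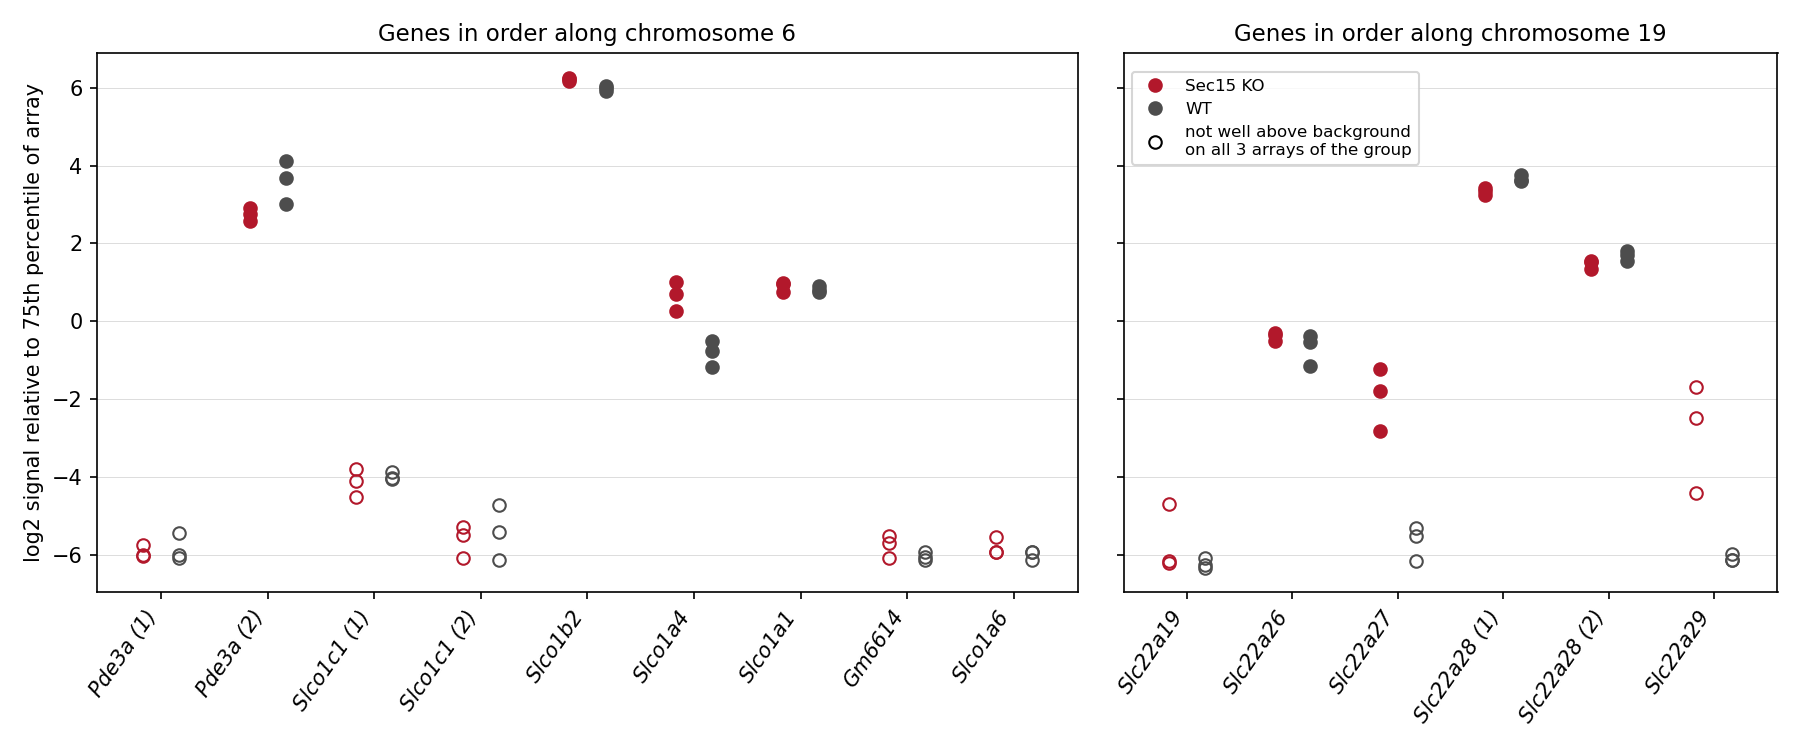
Log2 signal relative to the array's 75th percentile for each probe of the genes around the Slco cluster on chromosome 6 (left panel) and the Slc22a27 cluster on chromosome 19 (right panel), Sec15 KO arrays in red left of WT arrays in grey; open circles mark a group not well above background on all 3 arrays. Slc22a27 and Slc22a29 have their KO points above their WT points, while both probes of Slc22a28 between them have a lower mean in KO than in WT.

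A list of other uptake carriers of the same families held 34 genes, 32 of them on the array with 37 probes, of which 23 probes passed the filter and 10 were well above background on no array. Of the 23, 0 were higher and 2 lower in KO at a limma adjusted p under 0.05 (8.70%, beside 28.6% of all probes), with a count of 4 after quantile normalisation, cyclic loess or normexp with quantile normalisation, and with a median difference of 0.02. Slc22a16, a carnitine carrier best known from testis, averaged -1.44 ± 0.42 in KO and 1.98 ± 0.58 in WT (SD, n = 3 each). It was 10.7-fold lower in KO (difference -3.42, SE 0.35, adjusted p = 0.00648), differed by -2.93 in KO replicate 2 against the WT mean, and kept its call in all 18 alternative settings. Slc22a6, the organic anion carrier OAT1 of kidney tubules, averaged -0.67 ± 0.21 in KO and 0.20 ± 0.08 in WT and was 1.82-fold lower in KO (adjusted p = 0.0114), a call lost without KO replicate 3 (adjusted p = 0.0589) or WT replicate 3 (adjusted p = 0.0652). Among kidney markers, Umod read -3.81, -2.66 and -3.98 in KO and -2.37, -2.33 and -2.44 in WT, all KO values lower (difference -1.11, adjusted p = 0.0594). The brighter probe of Slc34a1 differed by -0.45 (adjusted p = 0.277) and Kap by 0.19 (adjusted p = 0.672), both with overlapping groups, and Slc12a1 was well above background on no array. The part of these markers in the Slc22a6 result was not tested. Slc22a12, the urate carrier of kidney, differed by 0.61 (SE 0.20, adjusted p = 0.0698). Slc10a1, the main sodium-dependent bile acid carrier of hepatocytes, read 8.75 ± 0.13 in KO and 8.71 ± 0.12 in WT on its brighter probe, a difference of 0.04 (95% interval -0.25 to 0.33).

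Of 25 probes for 19 other efflux pumps and carriers, 19 were tested, and 2 were higher and 1 lower in KO (15.8%, beside 28.6% of all probes in either direction), with a median difference of -0.05. With quantile normalisation or cyclic loess 0 were higher and 3 lower. Abcb4, the canalicular floppase that moves phosphatidylcholine into bile, averaged 6.19 ± 0.08 in KO and 5.59 ± 0.12 in WT and was 1.52-fold higher in KO (difference 0.60, SE 0.11, adjusted p = 0.0146). Abcg5, the sterol pump that works with Abcg8, averaged 3.50 ± 0.11 in KO and 3.07 ± 0.13 in WT and was 1.35-fold higher (adjusted p = 0.0393). Abcg8 itself differed by -0.08 (limma adjusted p = 0.696), with overlapping groups. Abcb4 was 0.27, 0.33 and 0.23 higher with no call after quantile normalisation, cyclic loess and normexp with quantile normalisation, and it also lost its call without KO replicate 3 (adjusted p = 0.0692) or WT replicate 3 (adjusted p = 0.0781). Abcg5 lost its call in 9 of 18 alternatives, its differences there lying between 0.16 and 0.43. Abcc5, a pump of cyclic nucleotides, gave 2.42-fold lower signal in KO on probe A_55_P2073940 (-1.31 ± 0.06 in KO and -0.04 ± 0.35 in WT, adjusted p = 0.0105), while its other tested probes differed by -0.26 and 0.14 and did not pass. That call was lost with the scan run as a block (adjusted p = 0.0577) and without KO replicate 3 (0.0549) or WT replicate 3 (0.0603), as adjusted p. Abcc8, the sulfonylurea receptor of pancreatic beta cells, differed by -0.45 (adjusted p = 0.0691). Abcb11, the bile salt export pump, read 6.30 ± 0.15 in KO and 6.37 ± 0.07 in WT, a difference of -0.07 (95% interval -0.35 to 0.21).

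The third list held 20 transcription factors and receptors known to act on liver transporters. Of its 28 tested probes, 9 were higher and 0 lower in KO (32.1%, beside 28.6% of all probes in either direction), with a median difference of 0.33. After quantile normalisation or cyclic loess 4 were called, and 1 without KO replicate 3 or WT replicate 3. Cux2, a repressor known for its female-specific expression in mouse liver, read -1.66, -2.67 and -1.81 in KO and -6.08, -5.99 and -6.19 in WT. It stood well above background on 3 KO and 0 WT arrays. By an approximate bound it exceeded WT about 3.94-fold or more in KO (limma adjusted p = 0.00371). It was called in each of the 17 alternatives that tested it. It too met the filter through its KO arrays alone and was not tested under the filter on all 6 arrays, so these calls are no independent support. Its measured difference was 4.04, or 1.08 with normexp and quantile normalisation together. Of the other 27 regulator probes, 8 were called higher, with a median difference of 0.32. Keap1, which holds NRF2 in the cytoplasm, averaged 1.56 ± 0.13 in KO and 0.83 ± 0.01 in WT and was 1.65-fold higher (adjusted p = 0.00992). Cebpb, a factor of the acute phase response, averaged 6.70 ± 0.06 in KO and 6.01 ± 0.08 in WT and was 1.61-fold higher (adjusted p = 0.00955). Hnf4a, a central hepatocyte factor, averaged 6.98 ± 0.16 in KO and 6.36 ± 0.11 in WT and was 1.53-fold higher (adjusted p = 0.0197). Keap1 and Cebpb each lost the call without KO replicate 3 (adjusted p = 0.0557 and 0.0532) and without WT replicate 3 (adjusted p = 0.0625 and 0.0603). Hnf4a lost it in 8 of 18 alternatives, its adjusted p reaching 0.0938 with the scan run as a block, where its difference was 0.45, and its difference being 0.24 with normexp and quantile normalisation together.

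The regulators called also included Ahr, Nr1h4 (the bile acid receptor FXR), Nfe2l2 (the gene of NRF2) and 1 of 2 tested probes of Stat5b, with differences between 0.31 for Stat5b and 1.01 for Ahr. With the scan run as a block none of these 4 was called (smallest adjusted p = 0.0618, for Nr1h4). The other Stat5b probe read 5.57, 6.58 and 6.16 in KO and 6.47, 6.87 and 6.83 in WT and did not pass (-0.62, adjusted p = 0.131), so the direction of Stat5b is not settled. Nr1i2 (the pregnane receptor PXR) differed by 0.29 (adjusted p = 0.0581), and the probes of Nr1i3 (the constitutive androstane receptor CAR) by 0.38 and 0.29 (adjusted p = 0.0679 and 0.0710). For these nuclear receptors no KO array fell among the WT values. Over the 28 tested regulator probes, KO replicate 2 minus the WT mean had a median of 0.25, beside 0.08 over all probes tested. Among regulators not called above, that difference was 1.30 for Bcl6 and -0.62 for Nr0b2.

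**Figure D4:**
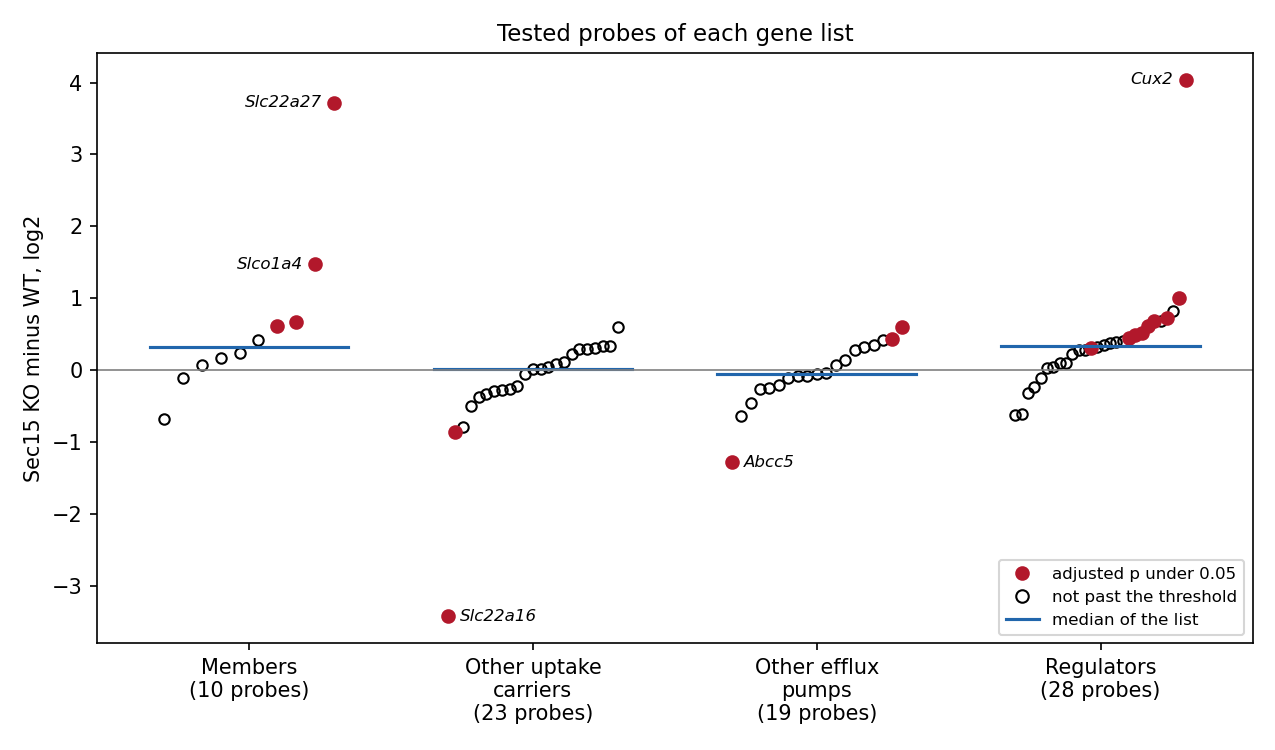
Each circle is 1 tested probe, placed by its Sec15 KO minus WT difference in log2 signal, for the members (10 probes), other uptake carriers (23), other efflux pumps (19) and regulators (28); filled red circles had an adjusted p under 0.05 and blue lines are medians. The medians were 0.33 for members, 0.02 for uptake carriers, -0.05 for efflux pumps and 0.33 for regulators, with Slc22a27 and Cux2 highest and Slc22a16 lowest.

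Markers of other cells were read too. Each sum weighs the brightest probes most, so calls per probe are given beside it, to be read against 17.0% higher and 11.6% lower over all probes tested. The summed linear signal of 4 Kupffer cell markers, in multiples of the array's 75th percentile signal, was 23.3 to 31.0 in KO and 17.6 to 18.6 in WT, and that of 4 sinusoidal endothelial markers 19.7 to 26.7 in KO and 15.7 to 16.7 in WT. Of the 5 Kupffer probes 2 were called higher (Cd5l and Clec4f), while 1 Adgre1 probe differed by -0.83 (adjusted p = 0.102), and of the 4 endothelial probes 2 were called higher (Stab2 and Lyve1), while Pecam1 differed by -0.39 (adjusted p = 0.168). The 4 stellate cell markers summed to 24.1 to 27.4 in KO and 15.3 to 20.3 in WT, with Lrat and Dcn called higher and Reln and Des above background on no array. The 5 erythroid markers summed to 40.4 to 55.3 in KO and 16.3 to 18.5 in WT, with 3 of 4 tested probes called higher and Alas2 differing by 0.02. Hepatocyte markers summed to 2226 to 2588 in KO and 1972 to 2206 in WT. Of their 7 probes 2 were called higher (Fgb and Tat) and 0 lower. This share of 28.6% stands beside 17.0% of all probes tested called higher and 28.6% called in either direction. The median difference of the hepatocyte probes was 0.05, with Ttr at -0.15 and Apoa1 at 0.00 (adjusted p = 0.391 and 0.983). Bile duct sums overlapped, at 0.31 to 0.63 in KO and 0.36 to 0.50 in WT. Of 3 tested bile duct probes 0 were called higher and 1 lower (Sox9, -0.61, adjusted p = 0.0114). Intestine sums overlapped too, at 15.3 to 21.5 in KO and 15.4 to 16.3 in WT, with Vil1 and Cdx2 above background on no array. Of 4 tested intestine probes 2 were called higher, both of Lgals4 (0.44 and 0.42, adjusted p = 0.0179 and 0.0367), and 0 lower. Pancreas markers were lower, at 1.74 to 1.90 in KO and 2.74 to 4.18 in WT, with Cela1 above background on no array. All 4 tested pancreas probes (Try4, Pnlip, Ctrb1 and Cpa1) were called lower, with differences from -3.80 for Try4 to -0.55 for Pnlip. Try4 and Cpa1 were each well above background on 1 KO array. The part of these cell types in the transporter results was not tested.

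For each transporter, the gene outside the set whose signal ran most alike over the 6 arrays was found by Pearson r. These were Tsen54 for Slco1a1 (0.983), Adam9 for Slco1a4 (0.9997), Apoa4 for Slco1b2 (0.997), Ttc7 for the brighter Slco2b1 probe (0.997), Foxa1 for Slc22a7 (0.999), Sucla2 for Slc22a27 (0.9997), Gm9199 for Abcc2 (0.996), Btf3l4 for Abcc3 (0.9994) and Tspyl1 for Abcc4 (0.9996). The 6 arrays share the group difference and the place of KO replicate 2, and between 33 probes for Slco1a1 and 2524 for Abcc3 reached r over 0.95. Each name is thus 1 of many with a similar profile.

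**Figure D5:**
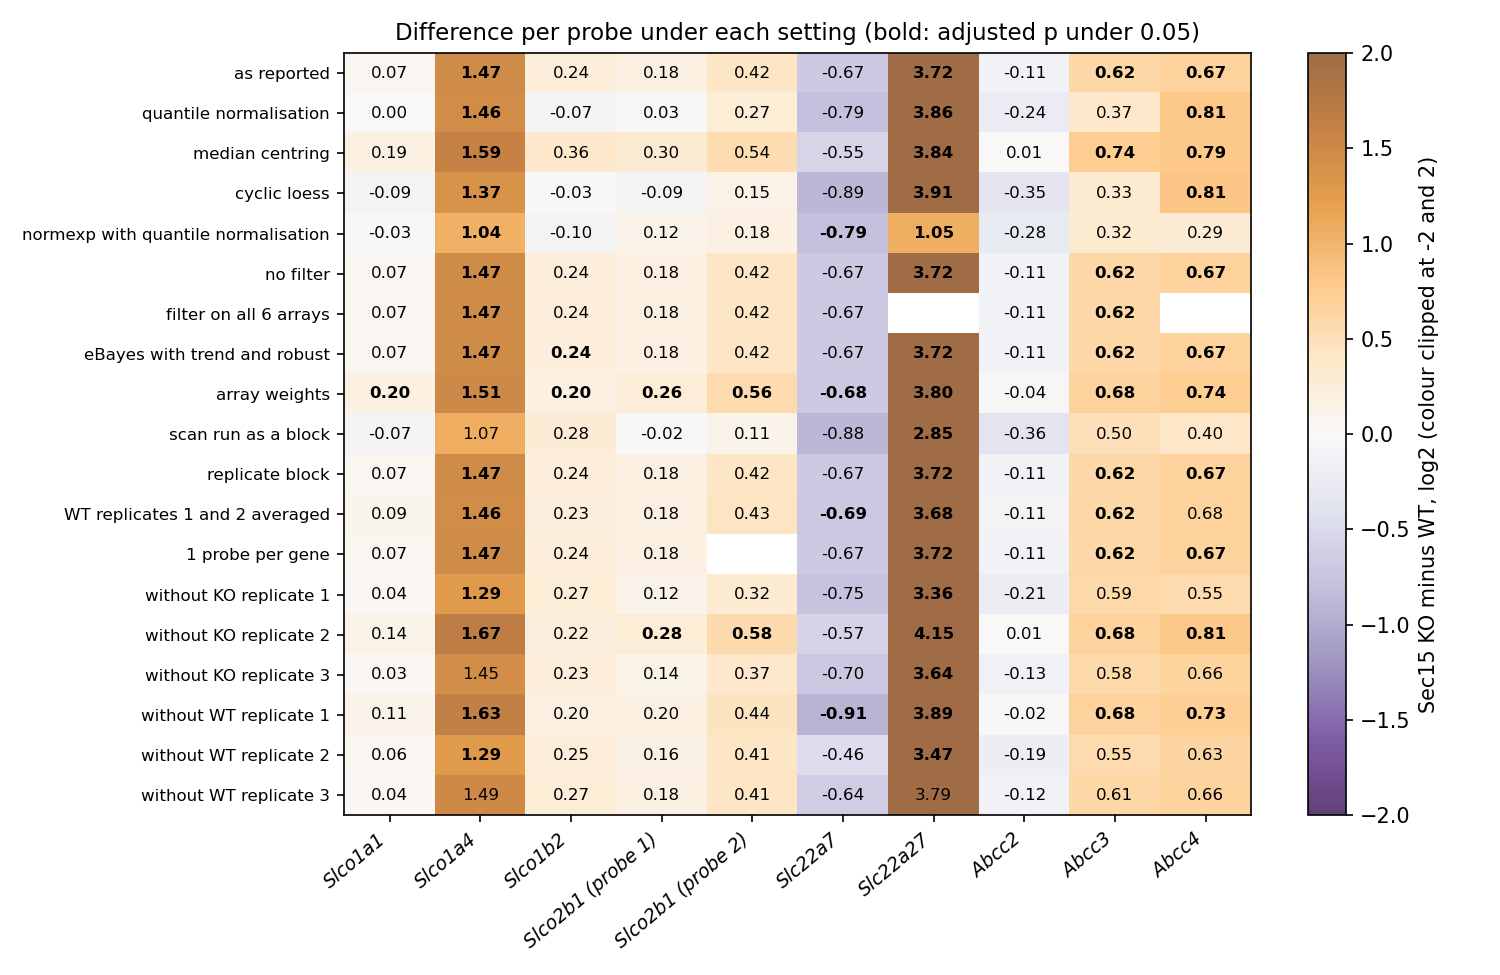
Sec15 KO minus WT difference in log2 signal of each member probe (columns) under the reported setting and 18 alternatives (settings run down the page), with colour clipped at -2 and 2 and bold type for an adjusted p under 0.05. Slco1a4 and Slc22a27 are positive in every setting that tested them, as are Abcc3 and Abcc4, Slc22a7 is negative in every setting, and Slco1a1, Slco1b2, the first Slco2b1 probe and Abcc2 change sign in some.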

How the data were processed

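RNA of 6 liver samples, 3 Sec15 KO and 3 WT by the labels, was measured on 1 one-colour array each. The deposited intensity of each spot was read by the authors with Agilent Feature Extraction 11.0.1.1 (protocol GE1_1100_Jul11) per the file headers, background-subtracted and detrended but not normalised between arrays. The deposited columns of other kind are yes-or-no flags (1 or 0) that mark a spot as well above background, saturated or an outlier. Outlier spots (178 to 236 of 43020 per array) were left out and spots of a probe averaged. The log2 signal minus the array's 75th percentile was tested for probes well above background on at least 3 of 6 arrays (27057 of 39429), with limma 3.58.1 (lmFit, eBayes) in R 4.3.3, with data.table (version 1.17.8) and jsonlite 2.0.0 as helpers, and Benjamini-Hochberg adjustment over all of them. The script was tested on simulated data.

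Transcript accessions were matched to RefSeq GRCm38.p6 symbols, for names and gene order alone, since the array design used mm9: 27234 probes matched 1 symbol and 12195 none. The members and lists were chosen with earlier results of these data known. The rule named every member probe, the 4 genes of smallest p per list and the most alike gene per member. Other neighbours, bile salt carriers, Abcg8 and the remaining regulators were named besides, with values seen. Some list members and 1 promoter motif are not reported here. The 18 alternatives covered normalisation, background, filter, variance model, array weights, scan run, replicate block, probe choice, WT replicates 1 and 2 averaged (their deposited names share a number) and each array left out. The scan run, taken from scan times on 1 date, may stand for the slide, which cannot be told apart from it. An exact permutation test of 3 against 3 cannot go below p = 0.1 and was not used.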

Additional observations from a re-analysis of the deposited data

How the results depend on the processing

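Of 177 member differences under 18 alternatives, 166 kept their direction, 11 reversed, 19 lost a call and 11 gained one. The 4 members called higher became 2 with normexp and quantile normalisation (run together throughout, and 3 with quantile normalisation alone), 2 with a filter on all 6 arrays (which leaves 8 member probes), 8 with array weights (which called 78.2% of all probes) and 1 with the scan run as a block. Leaving out 1 array gave 0 to 6: 0 without WT replicate 3, 1 without KO replicate 3, 2 without KO replicate 1 or WT replicate 2, and 6 without KO replicate 2. The 0 called lower became 1 with normexp, array weights or WT replicates 1 and 2 averaged, and 0 to 1 with an array left out; the probe was Slc22a7 each time. Other uptake carriers, 2 as reported, gave 4 with quantile normalisation, cyclic loess or normexp, 16 with array weights, and 1 to 8 with an array left out. Other efflux pumps, 3 as reported (2 higher and 1 lower), stayed at 3 with quantile normalisation or cyclic loess, but as 0 higher and 3 lower. With normexp they were 1 higher and 2 lower. Their count was 11 with array weights, 1 with the scan run as a block, and 0 to 7 with an array left out. Regulators, 9 as reported, gave 4 with quantile normalisation or cyclic loess, 15 with trend and robust eBayes (which called 31.9% of all probes), 24 with array weights, and 1 to 17 with an array left out. Reversed differences were Slco1a1 with quantile normalisation (-0.0024), cyclic loess (-0.0871), normexp (-0.0281) and the scan run as a block (-0.0657); Slco1b2 with quantile normalisation (-0.0697), cyclic loess (-0.0283) and normexp (-0.0950); the first Slco2b1 probe with cyclic loess (-0.0938) and the scan run as a block (-0.0212); and Abcc2 with median centring (0.00824) and without KO replicate 2 (0.0139), its range with 1 array left out being -0.21 to 0.01. None of the 12 rule-named genes outside the set reversed. The cause of these changes was not tested.

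Over all probes, 4597 were higher and 3148 lower in KO (59.4% higher), 5946 and 2534 with median centring (70.1%), and 2923 and 3168 with cyclic loess (48.0%), where the median of all tested probes was 0.08, 0.19 and 0.001 on the log2 scale. The counts were 1313 and 1213 with the scan run as a block, 199 and 146 when WT replicate 3 was left out, 486 and 512 when KO replicate 3 was, and 6820 and 5794 when KO replicate 2 was. Same-numbered KO and WT samples deviated from their group means with correlations of 0.105, 0.108 and 0.0241. Of the 3 KO samples, 2 correlated best with the WT sample of their own number. With 3 samples per group, these values cannot settle whether the numbers pair the samples. With the replicate block, 4 members were higher and 0 lower, with 3 other uptake carriers, 3 efflux pumps and 8 regulators called, and 3427 probes higher and 2694 lower over all. Signal over background limits Slc22a27 and Cux2 to approximate lower bounds and leaves Slc22a29 with no fold.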
